A study of Mus musculus with 14 samples.

Results

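The 9 mouse genes described here, Cx3cr1, P2ry12, Tmem119, Csf1r, Trem2, Ctss, C1qa, C1qb and C1qc, are commonly used to read microglia in bulk brain RNA. They were taken by symbol from a table of 48440 genes, and all 9 were found and passed the filter on low counts that kept 24680 genes for testing. The libraries held total RNA of C57BL/6 mice of the genotype CARIP-/- (knockout, KO) or wild type (WT), and all other attributes in the labels were shared by the genotypes. There were 3 KO and 3 WT libraries of the cerebellum, 2 KO and 2 WT of the cerebral cortex, whose titles read Cerebrum, and 2 KO and 2 WT of the hippocampus. The labels do not say how the knockout was made, whether it acts in all cells, or whether a number in a title stands for 1 mouse.

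Microglia are the resident macrophages of the brain. They depend on signalling through the receptor tyrosine kinase Csf1r, whose ligands are Csf1 and Il34, and they sense neurons through Cx3cr1, the receptor of the neuronal chemokine Cx3cl1, and nucleotides through the purinergic receptor P2ry12. Tmem119 is a membrane protein used as a marker that separates microglia from most other macrophages. Trem2 is a lipid-sensing receptor that signals through the adaptor Tyrobp. The chains C1qa, C1qb and C1qc assemble into C1q, which starts the classical complement pathway and which microglia supply to the brain. Ctss, cathepsin S, is a protease of the endolysosome that also acts in antigen presentation. In whole tissue, fewer cells of a type and less RNA per cell cannot be told apart.

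The libraries held 20.1 to 38.8 M counted reads each (median 24.7 M), of which the 9 genes together took 76.5 to 345 reads for each M, and the smallest count of a gene in a library was 42 reads. Levels are given as CPM, the reads of a gene for each M counted reads after the library totals were scaled by TMM. CARIP is not a symbol or alias in the gene tables used, so its transcript was not read and the genotypes rest on the labels. Several libraries stood apart from their groups. KO cortex library 2 had 44.3 CPM of the striatal dopamine receptor gene Drd2, against 1.27 CPM in the other KO cortex library and 0.421 and 0.571 CPM in WT cortex. It also had 511 CPM of the choroid plexus gene Ttr, against 21.9 CPM in the other KO cortex library and 7.13 and 21.3 CPM in WT cortex. WT cerebellum library 1 had 6.84 CPM of Ttr, against 562 and 1255 CPM in the other WT cerebella, while the KO cerebella had 848 to 1016 CPM. WT hippocampus library 2 had 995 CPM of Ttr, against 68.6 CPM in the other WT hippocampus and 35.2 and 42.9 CPM in KO hippocampus. KO cortex library 1 had a summed level of 12 monocyte and neutrophil markers of 60.8 CPM, against 6.29 CPM in the other KO cortex library and 16.8 and 8.26 CPM in WT cortex. The part of tissue composition in the results below was not tested.

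The clearest difference was between regions: all 9 genes were lower in the cerebellum than in the cortex and the hippocampus. The fall was between 2.08-fold for Ctss and 3.81-fold for Tmem119 against cortex, and between 2.28-fold for Ctss and 3.68-fold for Tmem119 against hippocampus. All 9 passed the test in both comparisons (edgeR quasi-likelihood test, Benjamini-Hochberg adjusted over all genes tested, threshold 0.05). Their adjusted p ran from 6.2e-06 to 9.5e-04 against cortex and from 2.6e-06 to 8.2e-04 against hippocampus. These regions differ widely, and 25.3% of all genes tested were called lower in the cerebellum than in cortex and 24.7% lower than in hippocampus, with 23% and 22.6% called higher. The median log2 fold change of the 9 genes was −1.62 against cortex and −1.58 against hippocampus, while that of all genes tested was 0.01 and 0.02. The 6 cerebellar libraries did not overlap the 4 of cortex or the 4 of hippocampus for any of the 9 genes, a pattern that 18% and 22.3% of all genes showed in the same direction.

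**Figure D1:**
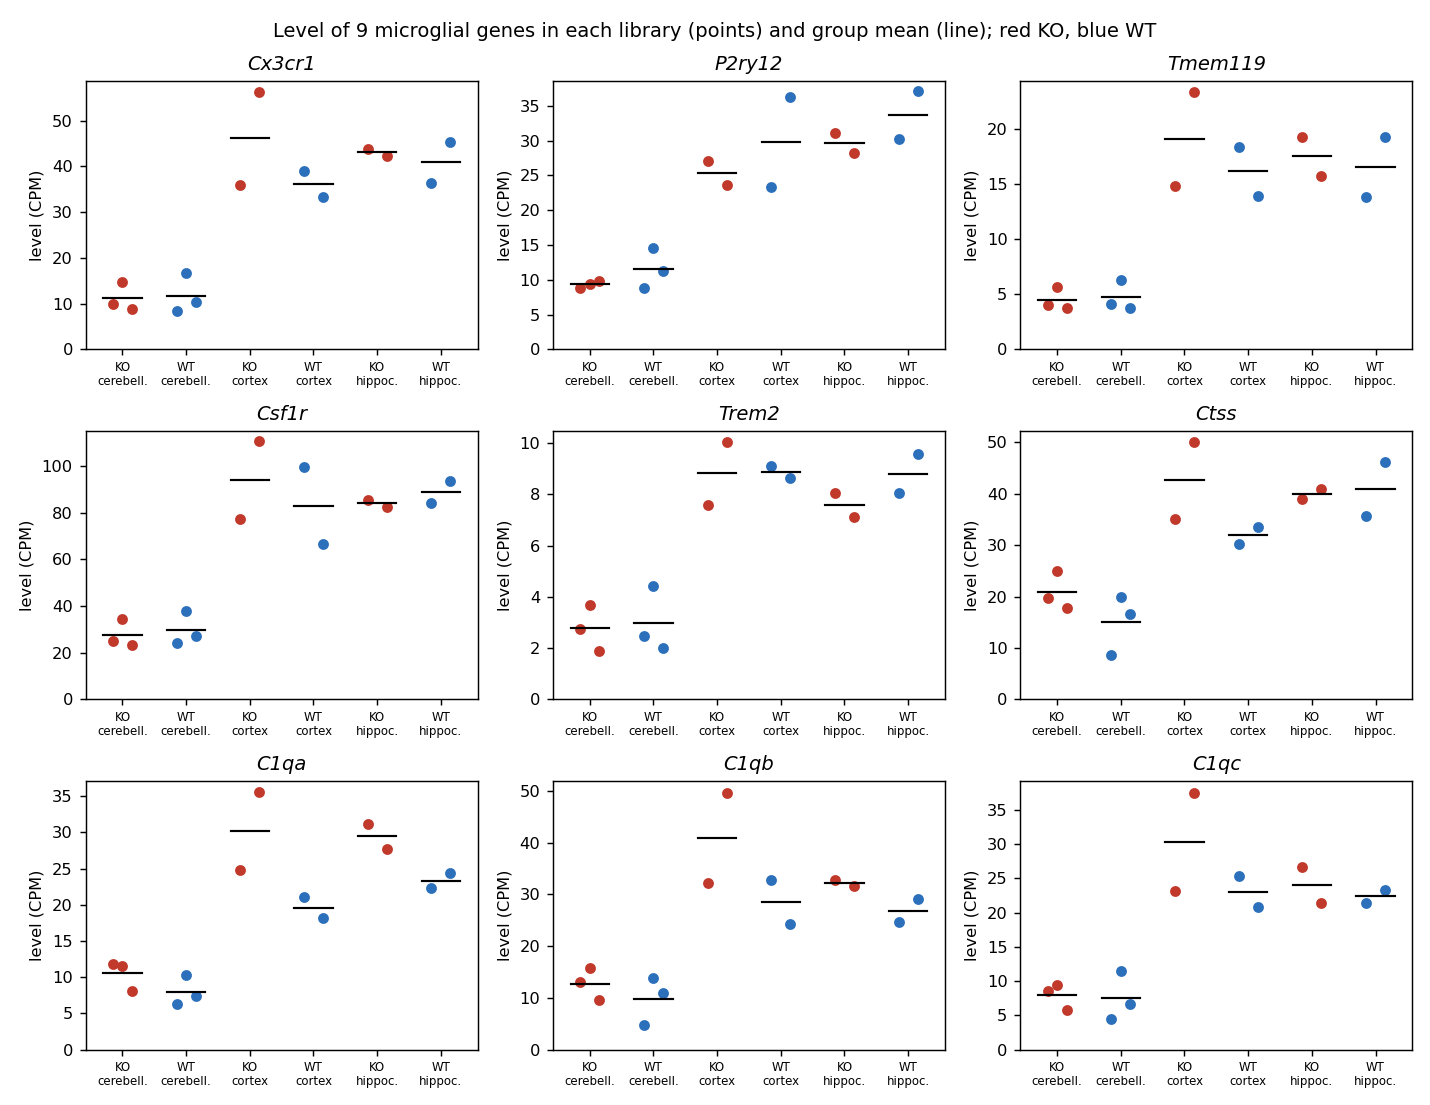
Level of each of the 9 genes in CPM (linear axis from 0), one panel per gene, with KO (red) left of WT (blue) in the cerebellum, cerebral cortex (cortex) and hippocampus (hippoc.). Points are libraries and lines group means. In every panel the 6 cerebellar points lie below all cortical and hippocampal points, while KO and WT points of the cerebellum overlap.

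Among the receptors and surface markers, Tmem119 (chromosome 5, 113793729 to 113800516, GRCm38, minus strand) had 4.07, 5.68 and 3.76 CPM in KO cerebellum and 4.15, 6.28 and 3.73 CPM in WT cerebellum. It had 14.9 and 23.4 CPM in KO cortex and 18.4 and 13.9 CPM in WT cortex, and 19.4 and 15.7 CPM in KO hippocampus and 13.8 and 19.3 CPM in WT hippocampus. The highest cerebellar library was below the lowest of the other regions, and the genotypes overlapped in every region. Tmem119 was lower in the cerebellum by a log2 fold change of −1.93 ± 0.20 (SE) against cortex and −1.88 ± 0.20 against hippocampus.

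Cx3cr1 (chromosome 9, 119901616 to 120069879, minus strand) had 9.91, 14.6 and 8.84 CPM in KO cerebellum and 8.34, 16.6 and 10.3 CPM in WT cerebellum. In cortex it had 36.0 and 56.3 CPM in KO and 39.1 and 33.4 CPM in WT, and in hippocampus 43.8 and 42.4 CPM in KO and 36.5 and 45.3 CPM in WT. The chemokine receptor gene was thus at 11.4 ± 3.38 CPM over the 6 cerebellar libraries, 41.2 ± 10.3 over the 4 of cortex and 42.0 ± 3.86 over the 4 of hippocampus (mean ± SD). Its log2 fold change was −1.83 ± 0.20 against cortex and −1.87 ± 0.20 against hippocampus.

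Csf1r (chromosome 18, 61100598 to 61132149, plus strand) was the gene of the set with the most reads. It had 24.9, 34.6 and 23.5 CPM in KO cerebellum and 24.0, 37.8 and 27.2 CPM in WT cerebellum, against 66.6 to 111 CPM in the cortical and 82.6 to 93.7 CPM in the hippocampal libraries. Its log2 fold change was −1.62 ± 0.17 against cortex and −1.59 ± 0.17 against hippocampus. Its last 873 exonic bases overlap exons of Hmgxb3 on the other strand, so reads there may belong to either gene if strand was not used in counting.

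P2ry12 (chromosome 3, 59216272 to 59262871, minus strand) had 8.76, 9.43 and 9.84 CPM in KO cerebellum and 8.78, 14.5 and 11.2 CPM in WT cerebellum. It had 27.1 and 23.5 CPM in KO cortex and 23.4 and 36.3 CPM in WT cortex, and 31.0 and 28.2 CPM in KO hippocampus and 30.2 and 37.1 CPM in WT hippocampus. The purinergic receptor gene lies inside Med12l, which runs on the other strand, with 9 shared exonic bases. Its log2 fold change was −1.41 ± 0.15 against cortex and −1.61 ± 0.15 against hippocampus.

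Trem2 (chromosome 17, 48346401 to 48354147, plus strand) was the gene with the fewest reads, at 2.87 ± 0.99 CPM in the 6 cerebellar, 8.86 ± 1.03 in the 4 cortical and 8.20 ± 1.01 in the 4 hippocampal libraries (mean ± SD). Its log2 fold change was −1.62 ± 0.23 against cortex and −1.50 ± 0.23 against hippocampus. The genotypes did not separate in its levels: KO cerebellum had 2.74, 3.68 and 1.90 CPM, and WT cerebellum 2.47, 4.44 and 2.00 CPM.

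The 3 C1q genes lie side by side on the minus strand of chromosome 4 within 18.7 kb (136880129 to 136898803), in the order C1qb, C1qc and C1qa. C1qb was lower in the cerebellum by a log2 fold change of −1.60 ± 0.25 against cortex and −1.39 ± 0.25 against hippocampus. For C1qc the values were −1.78 ± 0.24 and −1.58 ± 0.24, and for C1qa −1.41 ± 0.16 and −1.51 ± 0.16. Ctss (chromosome 3, 95526786 to 95556403, plus strand) had the smallest regional change of the set, −1.06 ± 0.20 against cortex and −1.19 ± 0.20 against hippocampus. Over both genotypes Ctss had 8.56 to 24.9 CPM in the cerebellum, against 30.3 to 50.1 CPM in cortex and 35.6 to 46.2 CPM in hippocampus. Ctss reads per Tmem119 read numbered 2.06 to 4.87 in the cerebellum, 1.64 to 2.41 in cortex and 2.02 to 2.60 in hippocampus, ranges that overlap.

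Hippocampus and cortex did not separate for any of the 9 genes. Log2 fold changes of hippocampus over cortex lay between −0.22 for C1qb and 0.20 for P2ry12, with 95% confidence intervals reaching from −0.82 to 0.61 over the set. None passed the test (edgeR adjusted p 0.53 to 0.95), while 12% of all genes tested did. All 9 ranges overlapped, while 8.9% of all genes tested had every hippocampal library above and 9.89% every one below the cortical libraries. A difference of the size seen for the cerebellum, at least 1.06 on the log2 scale, lies outside these intervals.

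Levels of different genes can be compared only per length, here as CPM per kilobase of the principal transcript. On that scale the order in the cerebellum was Ctss 13.2, C1qb 10.4, C1qa 8.89, C1qc 6.41, Csf1r 6.10, P2ry12 4.44, Trem2 2.64, Cx3cr1 2.55 and Tmem119 2.06 CPM per kilobase. In cortex C1qb was first with 31.9 and Ctss next with 27.5 CPM per kilobase, and in hippocampus Ctss had 29.8 and C1qb 27.1. Neighbours in this order differed by less than the spread between libraries in several places, such as C1qc and Csf1r or Trem2 and Cx3cr1 in the cerebellum. Places of C1qc and Trem2 depend on the length used: over all annotated exons joined, their cerebellar values were 3.99 and 0.581 CPM per kilobase.

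The other 35 microglial genes read beside the set followed the same regional order with few exceptions. Of them 33 were lower in the cerebellum than in cortex and 2 higher, and 34 were lower than in hippocampus and 1 higher, with medians of −1.38 and −1.35. Siglech, a microglial sialic acid-binding lectin, was lower by −2.14 ± 0.20 against cortex and −2.02 ± 0.20 against hippocampus, and Fcgr3, an Fc receptor, by −1.72 ± 0.16 against cortex. Tyrobp, the adaptor of Trem2, was lower by −1.37 ± 0.22 and −1.35 ± 0.22. Lyn, a Src-family kinase, went the other way, higher in the cerebellum by 1.67 ± 0.14 and 1.64 ± 0.14 (edgeR adjusted p 9.8e-07 and 9.7e-07). Golm1, a Golgi membrane protein, was higher than in cortex and lower than in hippocampus (−1.11 ± 0.10), and it was also the only one of the 35 called between hippocampus and cortex (1.86 ± 0.12).

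**Figure D2:**
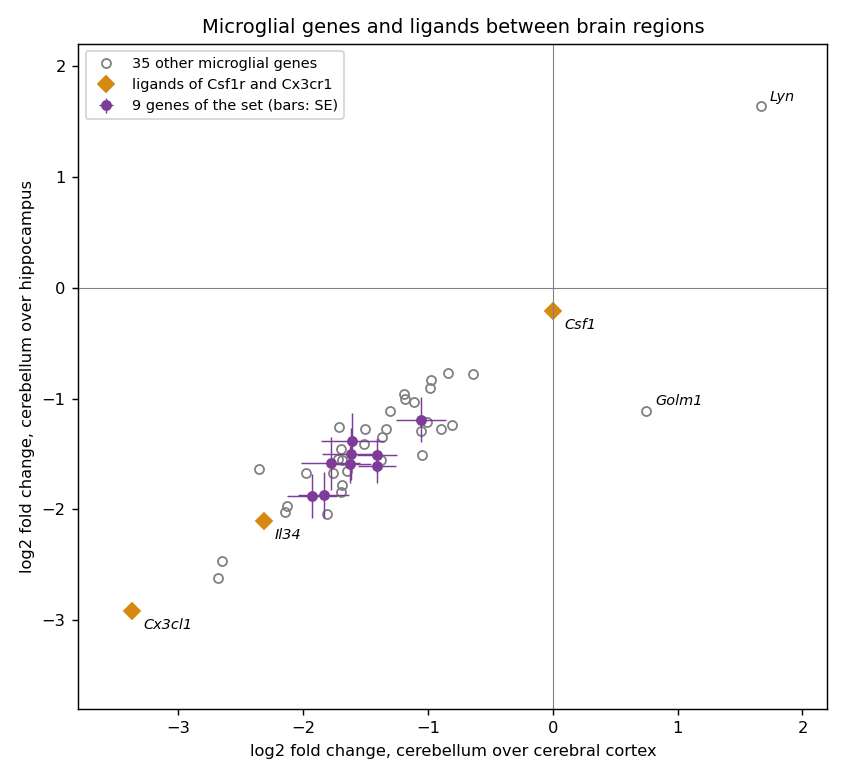
Log2 fold change of cerebellum over cerebral cortex (horizontal) against cerebellum over hippocampus (vertical) for the 9 genes (filled, bars SE), 35 other microglial genes (open) and 3 ligands (diamonds). Both comparisons use the same cerebellar libraries; all 9 genes lie at negative values on both axes, Lyn at positive values on both, Csf1 near 0, and Il34 and Cx3cl1 at −2.10 or lower.

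The ligands of the receptors did not share 1 pattern. Cx3cl1, the ligand of Cx3cr1, had 48.6, 72.5 and 43.5 CPM in KO cerebellum and 26.0, 89.5 and 52.9 CPM in WT cerebellum, against 536 to 633 CPM in cortex and 389 to 445 CPM in hippocampus. It was 10.3-fold lower in the cerebellum than in cortex and 7.53-fold lower than in hippocampus (edgeR adjusted p = 3.8e-06 and 9.4e-06). Il34, the Csf1r ligand known to be made by forebrain neurons, had 4.25 to 9.32 CPM in the cerebellum, against 27.1 to 32.9 CPM in cortex and 23.3 to 32.9 CPM in hippocampus. Its log2 fold changes were −2.32 ± 0.18 and −2.10 ± 0.18.

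Csf1, the other Csf1r ligand, had 21.9 to 33.8 CPM in the cerebellum, 22.6 to 34.4 CPM in cortex and 28.1 to 33.7 CPM in hippocampus. Its ranges overlapped in all 3 regions, with log2 fold changes of 0.00 ± 0.13 against cortex (edgeR adjusted p = 0.99) and −0.21 ± 0.13 against hippocampus (adjusted p = 0.20). Of 11 ligands and signalling partners tested out of 12 listed, 9 were lower in the cerebellum than in cortex and 7 lower than in hippocampus, and none was higher. Syk, the kinase below Tyrobp, was lower by −1.73 ± 0.19 and −1.61 ± 0.19.

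Genes of the rest of the complement system divided between directions. Of 24 listed, 19 were tested, and 2 were higher and 7 lower in the cerebellum than in cortex, and 3 higher and 7 lower than in hippocampus. Serping1, the inhibitor of C1r and C1s, was higher by 1.34 ± 0.24 and 1.78 ± 0.24, and Clu, clusterin, an extracellular chaperone that also restrains the terminal complex, was lower by −1.02 ± 0.18 and −1.14 ± 0.18. C1ra, a mouse gene for the protease C1r that C1q activates, was lower than in cortex by −2.45 ± 0.35. The complement gene C7 was lower by −5.52 ± 0.56 against cortex and −3.56 ± 0.63 against hippocampus. Of 12 cathepsin and lysosomal genes, 1 was higher and 2 were lower than in cortex, and 2 were higher and 2 lower than in hippocampus. Ctsf, another cysteine cathepsin, was higher by 0.56 ± 0.10 and 0.71 ± 0.10, while Cst3, the cathepsin inhibitor cystatin C, was lower by −1.55 ± 0.23 and −1.88 ± 0.23.

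Genes linked to activated microglia were mixed as well. Of 27 tested out of 30 listed, 2 were higher and 11 lower in the cerebellum than in cortex, and 4 were higher and 7 lower than in hippocampus. H2-D1, a class I histocompatibility gene that many cell types express, was higher by 1.15 ± 0.11 and 1.68 ± 0.11. Against hippocampus, Cst7 was higher by 1.19 ± 0.23 and Gpnmb lower by −1.65 ± 0.27 (edgeR adjusted p = 8.6e-04 and 2.4e-04). Lpl, lipoprotein lipase, which neurons also express, was lower by −3.03 ± 0.43 and −4.69 ± 0.44, and Cd68, a lysosomal glycoprotein of macrophages, by −1.30 ± 0.21 against cortex.

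Markers of other cells moved between the regions in their own ways. Of 10 border macrophage markers tested, none was higher and 2 were lower in the cerebellum than in cortex, and 2 were higher and 1 was lower than in hippocampus. Their summed level was 20.9 to 30.0 CPM in KO and 25.6 to 30.9 CPM in WT cerebellum, against 41.0 to 60.3 CPM in cortex and 31.5 to 35.8 CPM in hippocampus. The sum and the single markers differ in direction against hippocampus. There 8 of the 10 estimates were above 0, with a median of 0.30, and the marker called lower was the abundant Stab1 (−1.08 ± 0.11). All 10 cerebellar neuron markers were higher in the cerebellum than in both regions, and 0 of 12 oligodendrocyte markers were called in either comparison. Of 12 astrocyte markers, 5 were higher and 3 lower than in cortex. The part of the cell mix in the regional differences was not tested.

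The comparison of KO with WT called none of the 9 genes in any region. C1qa came nearest, with a log2 fold change of 0.40 ± 0.21 in the cerebellum, 0.63 ± 0.25 in cortex and 0.34 ± 0.25 in hippocampus, and adjusted p of 1, 0.67 and 1 (edgeR). Its raw p in cortex was 0.027, and over all alternatives its lowest adjusted p was 0.055 there, 0.49 in the cerebellum and 0.61 in hippocampus. In cortex that lowest value came without KO library 1 (log2 fold change 0.86), while without KO library 2 the log2 fold change was 0.34 with an adjusted p of 1. The percentage of all 24680 genes called was 0 in each region, in the test of whether the effect differs among regions and in the effect averaged over regions. At an unadjusted p under 0.05 there were 785 genes in the cerebellum, 1825 in cortex, 472 in hippocampus and 1086 in the average, and DESeq2 called 2, 47 and 2 in the 3 regions. Without KO cortex library 1, which leaves a lone KO library that is assumed to vary like the other groups, edgeR called 3005 genes in cortex, and again none of the 9. The labels do not say that libraries came from separate mice, so p-values measure the spread between these libraries.

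**Figure D3:**
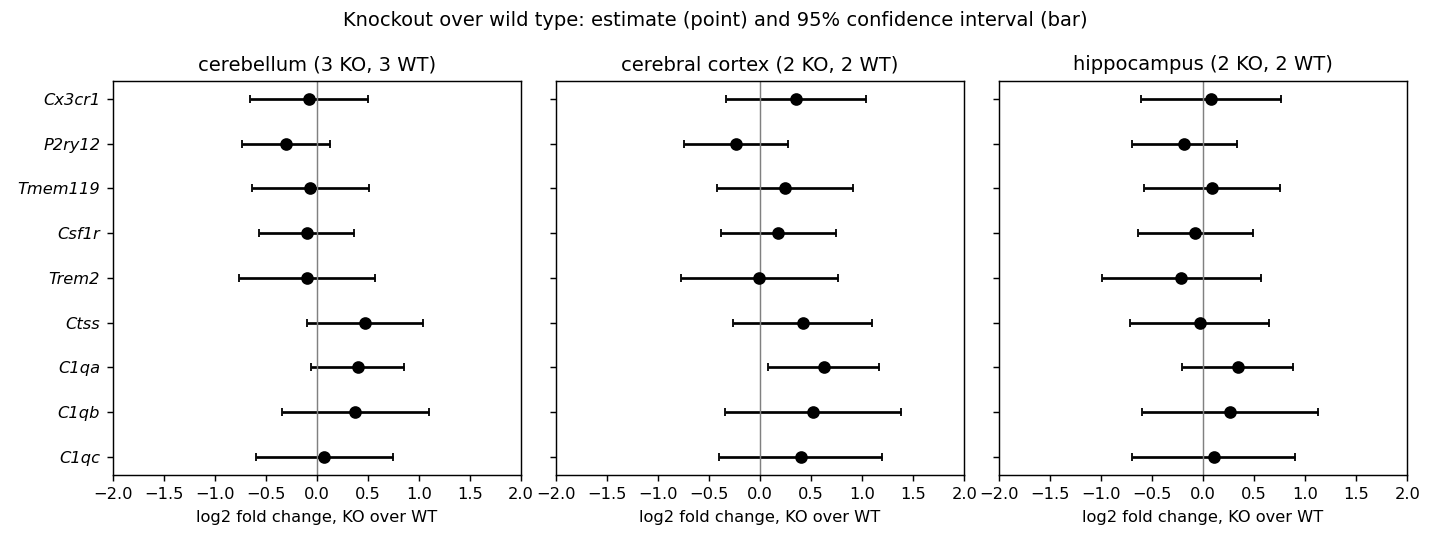
Log2 fold change of KO over WT for the 9 genes in each region, with points as estimates and bars as 95% confidence intervals from edgeR. All intervals cross 0 except that of C1qa in cortex (0.08 to 1.17), which does not pass after adjustment. In all 3 regions the 3 C1q genes are right of 0, and P2ry12 and Trem2 are left of 0 (Trem2 in cortex at −0.01).

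C1qa had 11.8, 11.6 and 8.11 CPM in KO cerebellum, against 6.27, 10.3 and 7.34 CPM in WT cerebellum. In cortex it had 24.9 and 35.6 CPM in KO and 21.1 and 18.2 CPM in WT, and in hippocampus 31.2 and 27.7 CPM in KO and 22.3 and 24.4 CPM in WT. The genotypes overlapped in the cerebellum and did not overlap in cortex or hippocampus. In the average over regions the log2 fold change was 0.45 ± 0.14, with a raw p of 0.0073 and an adjusted p of 0.91 (limma with genotype and number together as a block).

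C1qb had 13.1, 15.7 and 9.56 CPM in KO cerebellum, against 4.77, 13.8 and 10.9 CPM in WT cerebellum. In cortex it had 32.2 and 49.6 CPM in KO and 32.8 and 24.3 CPM in WT, and in hippocampus 32.9 and 31.6 CPM in KO and 24.6 and 29.1 CPM in WT. WT cerebellum library 1 was the lowest of all, and the genotypes separated in hippocampus only. The log2 fold changes of KO over WT were 0.38 ± 0.33, 0.52 ± 0.39 and 0.26 ± 0.39.

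C1qc had 8.49, 9.49 and 5.76 CPM in KO cerebellum, against 4.50, 11.4 and 6.60 CPM in WT cerebellum. In cortex it had 23.2 and 37.5 CPM in KO and 25.4 and 20.8 CPM in WT, and in hippocampus 26.7 and 21.4 CPM in KO and 21.4 and 23.4 CPM in WT. Its genotypes overlapped in every region, and its log2 fold changes were 0.07 ± 0.31, 0.40 ± 0.37 and 0.10 ± 0.37.

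Ctss had 19.8, 24.9 and 17.8 CPM in KO cerebellum, against 8.56, 19.9 and 16.6 CPM in WT cerebellum. In cortex it had 35.1 and 50.1 CPM in KO and 30.3 and 33.5 CPM in WT, and in hippocampus 39.1 and 40.9 CPM in KO and 35.6 and 46.2 CPM in WT. The groups did not overlap in cortex, overlapped in the cerebellum, and in hippocampus the KO values lay between the WT values. Log2 fold changes were 0.47 ± 0.26, 0.42 ± 0.31 and −0.03 ± 0.31. Ctss is also expressed by monocytes and neutrophils, and all 12 of their markers had estimates above 0 in each region, with medians of 1.72, 1.36 and 0.58, though none was called. Their summed level was 6.07 to 15.8 CPM in KO and 2.90 to 6.44 CPM in WT cerebellum, and 10.3 and 4.80 CPM in KO and 6.04 and 3.85 CPM in WT hippocampus. In cortex it was 60.8 and 6.29 CPM in KO and 16.8 and 8.26 CPM in WT, so KO cortex library 2, with the most Ctss, was below both WT libraries for these markers. Their part in the Ctss values was not tested.

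The 5 receptor and marker genes showed no common direction. P2ry12 had estimates below 0 in all 3 regions, −0.30 ± 0.20, −0.24 ± 0.24 and −0.18 ± 0.24, with overlapping genotypes in the cerebellum and cortex. In hippocampus the KO libraries had 31.0 and 28.2 CPM, against 30.2 and 37.1 CPM in WT, which overlap too. Cx3cr1 had estimates of −0.08 ± 0.27, 0.35 ± 0.32 and 0.08 ± 0.32, and Tmem119 of −0.07 ± 0.26, 0.25 ± 0.31 and 0.08 ± 0.31. Csf1r had −0.10 ± 0.21, 0.18 ± 0.26 and −0.08 ± 0.26. Trem2 was also below 0 in all 3 regions, at −0.10 ± 0.31, −0.01 ± 0.36 and −0.21 ± 0.36. Over all 9 genes the 95% confidence intervals reached from −0.76 to 1.10 in the cerebellum, from −0.78 to 1.38 in cortex and from −0.99 to 1.12 in hippocampus.

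Every KO library above every WT library was seen for 0 of the 9 genes in the cerebellum, for C1qa and Ctss in cortex and for C1qa and C1qb in hippocampus. Among all genes tested this pattern held for 4.78% in the cerebellum, 14% in cortex and 18.1% in hippocampus, so a count of 2 of 9 in a region with 2 libraries a group stands near the background. Every KO library below every WT library was seen for none of the 9, against 4.52%, 13.3% and 18.6% of all genes tested. The median log2 fold change of the 9 genes was −0.07 in the cerebellum, 0.35 in cortex and 0.08 in hippocampus, against −0.01, 0.02 and 0.00 for all genes tested. In cortex, markers of some other cell types leaned the same way, several of them further than the 9 genes. Medians were 2.116 over 12 choroid plexus and ependymal, 2.104 over 11 striatal neuron and 1.64 over 9 thalamic neuron markers, all above 0. They were 1.363 over 12 monocyte and neutrophil, 0.844 over 8 hippocampal neuron and 0.4818 over 10 cerebellar neuron markers. Further lists leaned about as far as the 9 genes or somewhat less. The median was 0.33 over 12 astrocyte markers, all above 0, and 0.29 over 12 oligodendrocyte markers. It was 0.33 over 8 markers of oligodendrocyte precursors and 0.21 over 10 general neuron markers. Others leaned less or the other way. The median was 0.11 over 12 endothelial and mural, −0.14 over 10 meningeal fibroblast, −0.24 over 8 cortical neuron and −0.41 over 7 erythroid markers. No gene of these lists was called. Without KO cortex library 2 the median of the 9 genes in cortex was −0.017, and without KO cortex library 1 it was 0.64. The knockout effects of the 9 genes were not called different among regions (edgeR, raw p 0.45 to 0.93, adjusted p 0.999). With cerebellar libraries blocked by number, none of the 9 was called either, while 0.269% of the 21588 genes tested in that fit were. There C1qa had a log2 fold change of 0.40 ± 0.18 (adjusted p = 0.49) and Ctss of 0.52 ± 0.20 (adjusted p = 0.43), the lowest values of these 2 genes among the cerebellar alternatives.

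Read as shares within a library, the C1q genes and the homeostatic genes separated the genotypes, in a measure that was chosen after the values were seen and is a description with no test. The summed CPM of the 3 C1q genes, divided by that of Cx3cr1, P2ry12, Tmem119 and Csf1r, was 0.701, 0.572 and 0.510 in KO cerebellum and 0.343, 0.473 and 0.473 in WT cerebellum. It was 0.517 and 0.574 in KO cortex and 0.440 and 0.421 in WT cortex, and 0.504 and 0.478 in KO hippocampus and 0.415 and 0.393 in WT hippocampus. The 7 KO libraries lay at 0.478 to 0.701 and the 7 WT libraries at 0.343 to 0.473, and the genotypes did not overlap within any region. With P2ry12 left out of the divisor the genotypes still did not overlap within a region, at 0.650 to 0.859 against 0.426 to 0.601 in the cerebellum, 0.627 to 0.645 against 0.505 to 0.555 in cortex and 0.574 to 0.609 against 0.485 to 0.509 in hippocampus. Over all regions together, the KO and WT ranges without P2ry12 overlapped, at 0.574 to 0.859 and 0.426 to 0.601. With only Cx3cr1 and Tmem119 in the divisor, the genotypes did not overlap within a region. Over all regions these ranges overlapped too, at 1.39 to 2.389 in KO and 1.19 to 1.765 in WT. How often ratios of other genes separate the genotypes was not counted. Libraries of different regions that carry 1 number may come from 1 mouse, so the 14 values need not be independent.

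**Figure D4:**
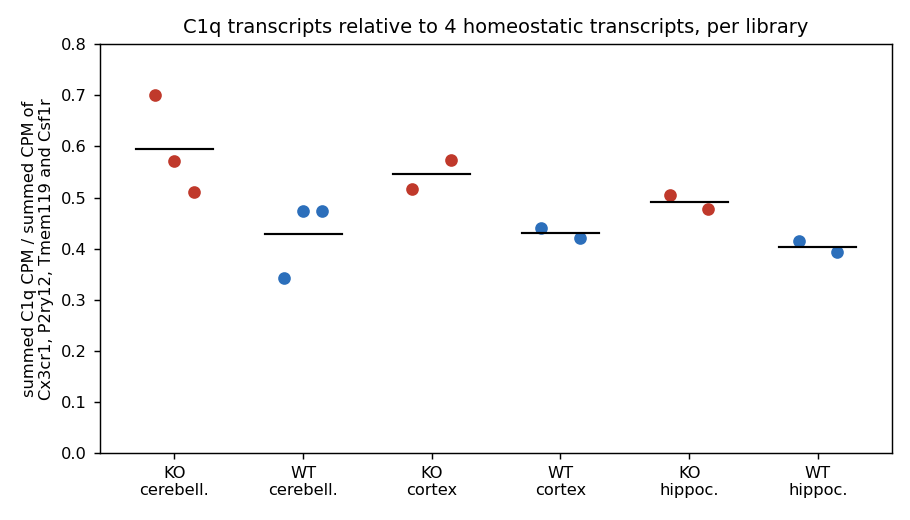
Summed CPM of C1qa, C1qb and C1qc divided by the summed CPM of Cx3cr1, P2ry12, Tmem119 and Csf1r in each library (linear axis from 0), KO in red left of WT in blue for the cerebellum (cerebell.), cortex and hippocampus (hippoc.), with lines as group means. The 7 KO points lie between 0.478 and 0.701 and the 7 WT points between 0.343 and 0.473; the ratio was chosen after its values were seen.

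Other measures of the same libraries also separated the genotypes, some in all 3 regions and others in only some. The mitochondrial share of reads was 3.67% and 3.56% in KO cortex, against 2.11% and 3.12% in WT cortex, and 3.68% and 3.33% in KO hippocampus, against 2.85% and 3.05% in WT hippocampus. In the cerebellum it was 2.19% to 2.57% in KO and 1.92% to 3.14% in WT. These shares did not overlap in cortex and hippocampus and overlapped in the cerebellum. The summed level of 10 interferon-response genes, none of which was called, was 54.9 to 79.4 CPM in KO and 35.8 to 52.0 CPM in WT cerebellum, 42.9 and 44.7 CPM in KO and 39.3 and 37.1 CPM in WT cortex, and 34.9 and 37.9 CPM in KO and 38.2 and 42.3 CPM in WT hippocampus. The interferon sums did not overlap in any region. They were higher in KO in the cerebellum and cortex and lower in KO in hippocampus. Sums of 11 striatal neuron markers, none of which was called, followed the same pattern. They were 413.6 to 475.5 CPM in KO and 331.3 to 370.4 CPM in WT cerebellum. In cortex they were 365.6 to 1302 CPM in KO and 249.8 to 327.1 CPM in WT. Hippocampus had 253.5 to 257.4 CPM in KO and 289.2 to 300.5 CPM in WT. Border macrophages also express C1q genes. Their markers, which were not called either, summed to 20.9 to 30.0 CPM in KO and 25.6 to 30.9 CPM in WT cerebellum, 43.0 to 60.3 CPM in KO and 41.0 to 55.7 CPM in WT cortex, and 33.2 to 35.8 CPM in KO and 31.5 to 35.3 CPM in WT hippocampus. These border macrophage ranges overlapped in all 3 regions. The sums of 7 erythroid genes were 291 and 264 CPM in KO and 360 and 340 CPM in WT cortex, and 178 and 137 CPM in KO and 348 and 310 CPM in WT hippocampus. They overlapped in the cerebellum. Sums of 12 oligodendrocyte markers separated in hippocampus only, at 3220 and 4327 CPM in KO and 5733 and 4793 CPM in WT. Those of 10 meningeal fibroblast markers separated in the cerebellum only, at 150 to 178 CPM in KO and 192 to 243 CPM in WT. The part of these measures in the ratio was not tested.

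None of the other microglial genes was called between genotypes. Of 35, estimates were above 0 for 20 in the cerebellum, 26 in cortex and 20 in hippocampus, with medians of 0.10, 0.28 and 0.04. Of 19 other complement genes none was called, and Clu had estimates of −0.11 ± 0.23, 0.40 ± 0.28 and −0.09 ± 0.28. The ligands gave −0.41 ± 0.24, 0.09 ± 0.28 and −0.20 ± 0.28 for Il34, −0.03 ± 0.35, −0.06 ± 0.42 and −0.14 ± 0.42 for Cx3cl1, and −0.29 ± 0.16, 0.29 ± 0.20 and −0.09 ± 0.20 for Csf1. Tyrobp gave 0.17 ± 0.29, 0.40 ± 0.34 and −0.28 ± 0.34. None of the 27 activation genes or 12 cathepsin and lysosomal genes was called.

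Within a region, the 9 genes tended to be high or low together from library to library, apart from P2ry12. On log2 CPM with each region's mean removed, the correlation between 2 genes over the 14 libraries had a median of 0.72 over 36 pairs. It was highest for C1qb with Ctss (r = 0.92) and lowest for P2ry12 with C1qa (r = −0.22). Each gene's r with the mean of the other 8 was 0.72 to 0.97, except 0.11 for P2ry12. These values share library depth and tissue composition and are descriptive. They were not compared with pairs of other genes. Nor were they recomputed without WT cerebellum libraries 1 and 2, whose mean deviations, −0.50 and 0.46, were the largest.

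**Figure D5:**
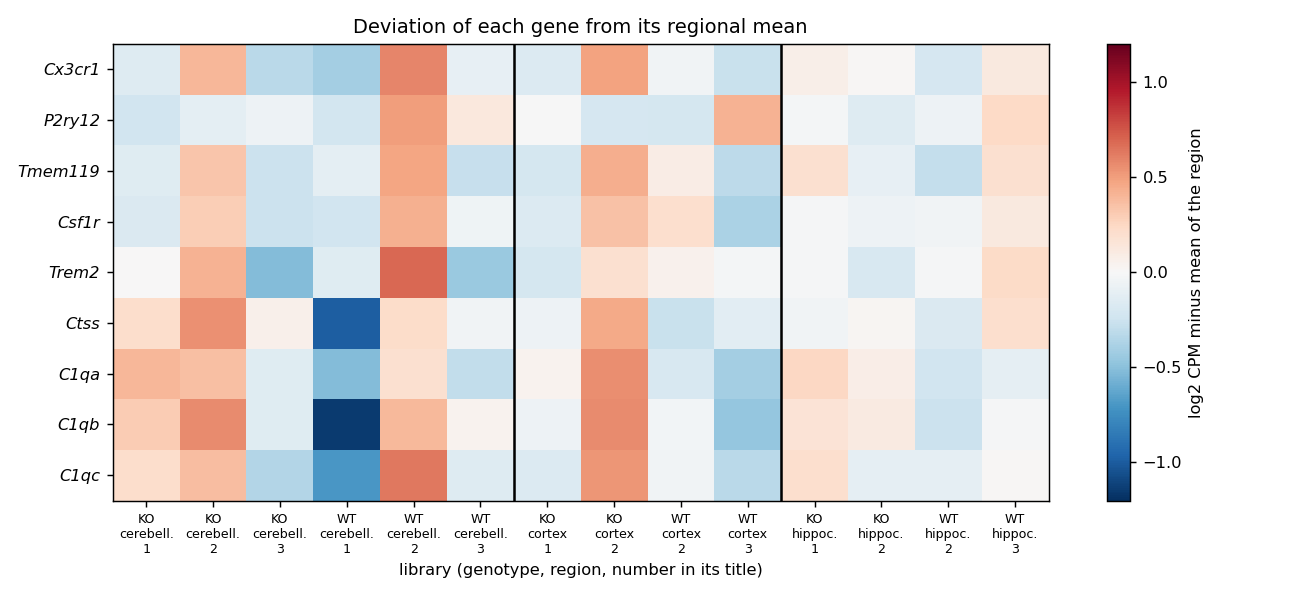
Log2 CPM of each of the 9 genes (rows) in each of the 14 libraries (columns) minus the mean of its region, red above and blue below, with vertical lines between the cerebellum (cerebell.), cortex and hippocampus (hippoc.) and KO left of WT. WT cerebellum 2, KO cerebellum 2 and KO cortex 2 are red for most genes, WT cerebellum 1 is blue for all 9, and P2ry12 does not follow the other rows in KO cortex 2 and KO cerebellum 2.

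KO cerebellum 2 and KO cortex 2 were above their regional means for 8 of 9 genes each, by 0.35 and 0.37 on the log2 scale on average, and WT cerebellum 2 was above for all 9, by 0.46. WT cerebellum 1 was below for all 9, with a mean deviation of −0.50. The first 3 of these libraries were the deepest, at 28.5, 38.8 and 28.3 M reads. They also had the most Mbp, the myelin basic protein gene, of their groups, at 2150, 3144 and 4215 CPM. The part of depth and dissection in these deviations was not tested.

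The 9 genes were left out of a ranking of 15740 other genes by the likeness of their deviations to the mean of the 9. First in it were Rhbdd2 (r = 0.97), Wwc1 (0.96), Sae1 (0.96), Fth1 (0.95), Habp4 (0.95), Iscu (0.95), Gnas (0.95), Ccdc126 (0.95), Smim17 (0.94) and Id3 (0.94), each over 14 libraries. Spearman's rho of these 10 was 0.802 to 0.978, and Pearson's r without the 2 libraries farthest from the middle, WT cerebellum 1 and 2, was 0.891 to 0.969. None of these 10 is on the list of other microglial genes, and Fth1, ferritin heavy chain, is on the activation list.

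Promoter sequence is shown for C1qb and Ctss, the pair that varied most alike, and for P2ry12, which varied apart. The 250 bases before the annotated start were taken from RefSeq (GRCm38.p6). Windows of 6 of the 9 genes were counted, while C1qa, Csf1r and Tmem119 were left out. The motif counts below cover these 6 only, so their comparison with all windows does not describe the whole set. Capitals mark GAGGAA or GGAAGT on either strand, which both hold the GGAA core of the ETS factor family, to which the macrophage factor PU.1 belongs. The motifs were chosen after the sequences were seen and can overlap each other in part.
C1qb chr4:136886201-136886450 (minus strand): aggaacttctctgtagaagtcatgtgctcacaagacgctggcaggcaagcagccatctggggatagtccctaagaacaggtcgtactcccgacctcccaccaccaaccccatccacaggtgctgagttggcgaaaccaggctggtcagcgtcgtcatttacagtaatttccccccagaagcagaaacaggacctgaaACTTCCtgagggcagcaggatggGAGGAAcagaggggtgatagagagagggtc
Ctss chr3:95526536-95526785 (plus strand): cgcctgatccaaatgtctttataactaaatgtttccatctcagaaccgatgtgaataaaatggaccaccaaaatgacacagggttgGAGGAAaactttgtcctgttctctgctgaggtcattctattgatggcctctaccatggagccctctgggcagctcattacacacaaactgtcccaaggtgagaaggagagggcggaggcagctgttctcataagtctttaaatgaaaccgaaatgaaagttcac
P2ry12 chr3:59262986-59263235 (minus strand): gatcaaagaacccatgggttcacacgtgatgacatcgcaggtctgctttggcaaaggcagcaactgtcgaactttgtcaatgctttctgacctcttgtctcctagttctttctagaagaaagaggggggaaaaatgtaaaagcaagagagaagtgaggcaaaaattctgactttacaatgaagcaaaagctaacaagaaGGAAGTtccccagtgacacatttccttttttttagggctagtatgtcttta
GAGGAA was found in 4 of the 6 windows and in 23.3% of 32851 windows of the same length, and GGAAGT in 3 of 6 and in 19.7%. Either was found in 5 of 6 windows and in 36.7% of all. The match nearest the start lay 30 bases before it in C1qb, 164 in Ctss and 51 in P2ry12. A match is a run of letters and says nothing of binding in these libraries.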

How the data were processed

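Total RNA, extracted with TRIzol and treated with DNaseI per the labels' protocols, was sequenced from 14 libraries of 3 brain regions and 2 genotypes. The values are raw read counts, deposited as 1 table with a column per library. The submitters' processing notes name STAR 2.7.3a, featureCounts 2.0.1, cutadapt 2.10, Trim Galore 0.6.4 and the build GRCm38.p6. For the annotation release and the treatment of strand and of reads with several matches, nothing is stated in the labels or notes. Symbols, coordinates and transcript lengths came from GENCODE M21 (GRCm38), which matched 48058 of 48440 identifiers (99.2%) with versions ignored.

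From these counts edgeR 4.0.16 (R 4.3.3) kept 24680 genes by filterByExpr, scaled libraries by TMM and fitted the robust quasi-likelihood model to all 14 libraries in 6 groups, with 8 residual degrees of freedom and a biological coefficient of variation of 24.7%. Regions were compared over the mean of both genotypes, as independent libraries. The knockout effect averaged over regions was tested with limma 3.58.1 (voom, statmod 1.5.0), with genotype and number as a block (correlation 0.096). Adjusted p-values are Benjamini-Hochberg values over all genes tested, and 0.05 was the threshold. CPM levels use the TMM-scaled totals. The count test was tested on simulated data with the same spread for every gene and no library that stood apart. Those data therefore do not show how the test behaves with the libraries that stood apart here. At a depth of 20.1 to 38.8 M reads per library, these genes had 42 to 3725 reads each. How far depth and the spread between libraries each limit precision was not separated.

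Cerebellar libraries numbered 1 to 3 in both genotypes had deviations from the group mean that correlated at 0.29, 0.78 and 0.38 for equal numbers over 15859 genes, above the bound of 0.1, so a fit blocked by number was run as an alternative. Unequal numbers reached 0.36 and 0.49 (KO 1 with WT 3, KO 3 with WT 1), so the pairing of 1 and 3 is not settled. In cortex and hippocampus, 2 is the sole number that both genotypes carry, so genotypes could not be paired by number there. The limma fit with genotype and number as a block, which ties regions of 1 presumed mouse and pairs no genotypes, was an alternative in each comparison but the averaged effect, where it was the test itself.

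The 9 genes and the 22 other gene lists were chosen with earlier results of these data known. Named are the 9 genes, the ligands and Tyrobp, and some of the other genes eligible in each comparison and list. Eligible were up to 4 members with the smallest adjusted p under the threshold, or else the 2 most abundant. The likeness ranking took the 10 highest Pearson r among genes other than the 9 with a mean log2 CPM of at least 1. The ratios and promoter motifs, and Drd2, Ttr and Mbp as signs of composition, were chosen after values were seen. Alternatives were DESeq2 1.42.0, DESeq2 size factors, no filter on low counts, fits to the libraries of 1 region, the block by number (cerebellum), the limma fit, edgeR without the block for the averaged effect, and each of the 14 libraries left out in turn.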

Additional observations from a re-analysis of the deposited data

How the results depend on the processing

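Under the alternatives run for each comparison, none of the 9 genes was called between genotypes, all 9 were called lower in the cerebellum than in both other regions, and none was called between hippocampus and cortex. DESeq2 size factors, no filter and each library left out were run for all comparisons, DESeq2 for all but the averaged effect, and limma with genotype and number as a block for all but the averaged effect, where it was the test itself and edgeR without the block the alternative. Fits to the libraries of 1 region were run only for KO against WT within a region, and the replicate block only for the cerebellum. Counts over all genes moved. In the cerebellum DESeq2 called 2, the replicate block 58 and the fits without 1 library 0 to 1. In cortex DESeq2 called 47, no filter 1 and the fits without 1 library 0 to 3005, the highest without KO cortex 1. In hippocampus DESeq2 called 2 and the fit to its own libraries 4. The test of a difference among regions called 0 to 434 without 1 library. For the averaged effect edgeR without the block called 1, no filter 3 and the fits without 1 library 0 to 78. For hippocampus against cortex the fits without 1 library called 1541 to 4143. Both highest knockout counts, 434 and 78, came without KO cortex 1, which leaves 1 KO library in that region, assumed to vary like the other groups. The cause was not tested.

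Fold changes of the 9 genes kept their direction except in 46 cases, none of which was called, and 45 of those came from leaving out 1 library. The other was Csf1r averaged over regions, −8.9e-04 in edgeR without the block. Without 1 library, the log2 fold changes that changed sign ranged as follows. For KO over WT in the cerebellum, Cx3cr1 ran from −0.33 to 0.26, Tmem119 ran from −0.27 to 0.20, Csf1r ran from −0.30 to 0.11, C1qc ran from −0.19 to 0.51 and Trem2 ran from −0.36 to 0.32. For KO over WT in cortex, Cx3cr1 ran from −0.017 to 0.64, P2ry12 ran from −0.51 to 0.11, Tmem119 ran from −0.13 to 0.54, Csf1r ran from −0.11 to 0.51 and Trem2 ran from −0.23 to 0.18. For KO over WT in hippocampus, Cx3cr1 ran from −0.070 to 0.24, Tmem119 ran from −0.13 to 0.34, C1qc ran from −0.068 to 0.25 and Ctss ran from −0.21 to 0.16. For KO over WT averaged over regions, Tmem119 ran from −0.024 to 0.20, Csf1r ran from −0.087 to 0.10 and Trem2 ran from −0.17 to 0.019. For hippocampus over cortex, Cx3cr1 ran from −0.11 to 0.22, Tmem119 ran from −0.19 to 0.14, Csf1r ran from −0.17 to 0.13, C1qa ran from −0.014 to 0.25 and C1qc ran from −0.35 to 0.0070.

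Cortex and hippocampus had 2 libraries per genotype. Confidence intervals of KO over WT reached from −0.78 to 1.38 in cortex and from −0.99 to 1.12 in hippocampus over the set. How far the number of libraries limits this precision was not tested.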
